A study of Homo sapiens with 6 samples.

Results

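Lysophosphatidic acid (LPA) and sphingosine-1-phosphate (S1P) are lipid messengers that act on cells through families of G protein-coupled receptors. The 10 genes described here, of 46427 in the deposited gene table, were chosen by name: the LPA receptors LPAR1, LPAR2, LPAR3, LPAR5 and LPAR6, the S1P receptors S1PR1, S1PR2 and S1PR3, and the phospholipid phosphatases PLPP1 and PLPP3, which remove the phosphate from both ligands at the cell surface. The comparison asks which of these receptors remained when LPAR1 mRNA was lowered. The fall of LPAR1, which the paper reports, was known from these same data when the genes were chosen. Its test, its rank and its place in counts of the 10 genes are therefore a description and no separate support. RNA was sequenced from MDA-MB-231 cells, an established metastatic human breast cancer line labelled wild type, after treatment with control-siRNA (3 libraries) or with TAZ-siRNA (3 libraries). TAZ is the transcriptional co-activator encoded by WWTR1, and the siRNA against it was a siGENOME product delivered with DharmaFECT4. All cells were kept in low-glucose DMEM with fetal bovine serum, so both groups shared the line and the medium. One line and one siRNA product stand behind every value, and effects of the siRNA other than the loss of TAZ cannot be told apart from those of TAZ. The labels do not give the time between transfection and harvest, and each library is a separate cell preparation, so p-values measure the spread between these preparations.

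Both lipids are present in serum. LPA is made outside cells mainly by autotaxin, and S1P is made inside cells by sphingosine kinases and then exported. Their receptors couple to G proteins of the Gi, Gq and G12/13 classes in different combinations. Coupling to G12/13 activates RhoA through RhoGEF proteins, a known route from serum lipids to actin stress fibres and to the activity of YAP and TAZ, and coupling to Gi is known for driving migration and proliferation.

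Total counts per library ran from 48307548 to 71749634, and the replicates of each group were further apart than sampling noise allows (chi-square per degree of freedom, 6.79 to 41.0), most so in the pairs that held replicate 3. The targeted gene WWTR1 stood at 192, 190 and 190 CPM (counts brought to the same library size) with control-siRNA and at 17.3, 17.0 and 15.1 CPM with TAZ-siRNA, a log2 fold change of -3.53 that matched the labels. The mesenchymal and epithelial markers of the line (VIM, CD44, AXL, KRT18 and KRT8) were at 358 CPM or more in every library, with AXL lower with TAZ-siRNA (log2 fold change -0.35, adjusted p = 0.0023 by edgeR). Of the genes expected to be low, ESR1 and PGR had 0 to 6 counts per library, CDH1 2 to 36 and EPCAM 38 to 106. Of 5 markers of other cells, PTPRC was at 0 in all libraries, ALB and MYH11 had at most 7 counts, and the endothelial genes PECAM1 and CDH5 were measured at 4.15 to 6.29 CPM and 1.31 to 2.15 CPM, neither past the test between the groups. In these bulk samples, fewer cells that express a gene and less RNA per cell cannot be told apart.

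Annotated start regions of the genes were read to show DNA that transcripts below begin from. RefSeq start windows (GRCh38.p14) were at hand for 9 of the 10 genes in 15 windows, with PLPP1 the gene without an entry. Each window held the 250 bases before a start and the 50 bases from the start base on, and motifs were searched in all of it. Not every start with counts had a window. Those without included LPAR5 at 6635959, LPAR3 at 84885456, S1PR1 at 101236749 and LPAR2 at 19628395. The motif counts therefore cover only part of the starts in use. The 3 sequences shown are the 250 bases before a start and the start base of LPAR1, the receptor that fell, S1PR3, the receptor with the highest level, and LPAR5, the member whose window held the binding motif of TEAD, the DNA-binding partner of TAZ. They run 5′ to 3′ on the strand of the gene, and capitals mark the first transcribed base and each match to GGAATG on either strand.
LPAR1, chr9:111038470-111038720, minus strand: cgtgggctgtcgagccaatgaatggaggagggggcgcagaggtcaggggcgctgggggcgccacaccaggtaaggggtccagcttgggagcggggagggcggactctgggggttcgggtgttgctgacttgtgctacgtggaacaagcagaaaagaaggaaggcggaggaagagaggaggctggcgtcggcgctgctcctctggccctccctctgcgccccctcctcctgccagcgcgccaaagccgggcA
S1PR3, chr9:88991218-88991468, plus strand: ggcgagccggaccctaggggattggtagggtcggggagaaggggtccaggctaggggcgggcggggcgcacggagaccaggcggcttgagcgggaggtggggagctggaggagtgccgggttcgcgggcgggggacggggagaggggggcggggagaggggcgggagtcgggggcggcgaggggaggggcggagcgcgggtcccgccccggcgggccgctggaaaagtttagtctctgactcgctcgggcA
LPAR5, chr12:6631649-6631899, minus strand: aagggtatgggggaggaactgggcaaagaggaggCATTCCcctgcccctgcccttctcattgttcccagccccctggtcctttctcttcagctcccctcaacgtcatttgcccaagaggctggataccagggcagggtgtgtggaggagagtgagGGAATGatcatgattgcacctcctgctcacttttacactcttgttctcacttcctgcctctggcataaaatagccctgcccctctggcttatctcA
The region before the LPAR1 start was 68.0% G and C, that of S1PR3 76.4% and that of LPAR5 55.2%, and they held 17, 28 and 1 CG dinucleotides. GGAATG was found in 1 of the 15 windows, that of LPAR5, with the matches beginning 216 and 95 bases before the start. Among all 35116 start windows of the table, 14.0% held it. The AP-1 motif TGANTCA was found in the LPAR2 window 246 bases before the start and in none of the other 14 (7.71% of all windows), and the CArG box, the binding motif of SRF, in none (1.29% of all windows). The motifs did not overlap each other, and a match or its absence describes only these letters in this window.

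LPAR1, the receptor best known for LPA-driven migration, was the one of 3 LPA receptors tested whose mRNA difference passed the test. This fall was known when the genes were chosen. LPAR1 (NCBI gene 1902) lies on the minus strand of chromosome 9 from 110873252 to 111038998 in GRCh38. Its counts were 1171, 971 and 693 in control-siRNA replicates 1 to 3 and 301, 222 and 264 in TAZ-siRNA replicates 1 to 3. Every TAZ-siRNA library was well below every control-siRNA library. Normalized, LPAR1 stood at 15.8 ± 1.66 CPM (SD, n = 3) and 4.45 ± 0.302 CPM (SD, n = 3), so that 28.1% of the control-siRNA level remained. The log2 fold change was -1.83 (standard error 0.10, 95% interval -2.06 to -1.61, quasi-likelihood test of edgeR, adjusted p = 6.0e-06). By the size of its fold change, LPAR1 ranked 8 among the 1634 genes that were called lower and averaged 1 CPM or more. The fall was -1.88 without TAZ-siRNA replicate 3.

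LPAR5, a receptor that can couple to Gq and G12/13, lies on chromosome 12 (6618835 to 6635959) and was the second LPA receptor of the control cells by level. Its TPM (a level per transcript length, scaled to a common total in each library) was 3.18, 2.98 and 3.32 with control-siRNA and 2.99, 3.25 and 2.74 with TAZ-siRNA. The libraries of the groups were interleaved. The log2 fold change was -0.14, with a 95% interval of -0.40 to 0.12 (adjusted p = 0.43 by edgeR). A fall of LPAR5 mRNA as large as that of LPAR1 lay outside this interval. LPAR2, which couples to Gi, Gq and G12/13 and binds scaffold proteins through its C-terminal tail, lies on chromosome 19 (19623655 to 19628395). Its TPM was 1.90, 2.59 and 1.48 with control-siRNA and 2.39, 2.06 and 2.55 with TAZ-siRNA. Here too the groups overlapped, and control-siRNA replicate 2 was the highest of the 6 libraries. The log2 fold change of LPAR2 was 0.14 (95% interval -0.28 to 0.55, adjusted p = 0.65 by edgeR), so the data allowed both a small fall and a rise of up to 0.55.

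LPAR3 and LPAR6 were near the counting floor and did not pass the filter on low counts. LPAR3 on chromosome 1 (84811601 to 84893206), a receptor that prefers LPA with unsaturated chains, had 0, 8 and 4 counts with control-siRNA and 4, 6 and 2 with TAZ-siRNA. LPAR6 on chromosome 13 (48400897 to 48444669), a more distant member of the family, had 4, 11 and 3 counts with control-siRNA and 5, 5 and 6 with TAZ-siRNA. Its gene lies within the span of RB1, which had 6758 to 10758 counts per library, and use of the strand in counting is not given in the sources used here. A count of 3, the limit that a count of 0 allows, equals 0.0412 to 0.0618 CPM in these libraries and covers counting error only. Neither gene was called when the filter was lifted, and no difference between the groups was detectable for either at this depth.

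Summed over the 5 LPA receptors, the level was 15.2, 14.8 and 12.8 TPM with control-siRNA and 7.97, 8.20 and 8.07 TPM with TAZ-siRNA. LPAR1 made up 66.2, 60.7 and 61.7% of this sum with control-siRNA and 31.3, 33.3 and 33.0% with TAZ-siRNA. The groups did not overlap, and LPAR1 was the first of the LPA receptors in every control-siRNA library and the second, behind LPAR5, in every TAZ-siRNA library. The other 4 receptors together held 5.28 ± 0.478 TPM (SD, n = 3) with control-siRNA and 5.45 ± 0.0371 TPM (SD, n = 3) with TAZ-siRNA. This ratio of 1.03 is within the spread of the control-siRNA libraries, and it was 0.981 in CPM per kilobase. The LPA receptor mRNA that remained was thus LPAR5 (37.0 ± 2.86% of the sum, SD, n = 3), LPAR1 (32.5 ± 1.11%) and LPAR2 (28.9 ± 3.37%) in similar parts, against 22.4 ± 3.19% for LPAR5 and 13.9 ± 3.21% for LPAR2 with control-siRNA.

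**Figure D1:**
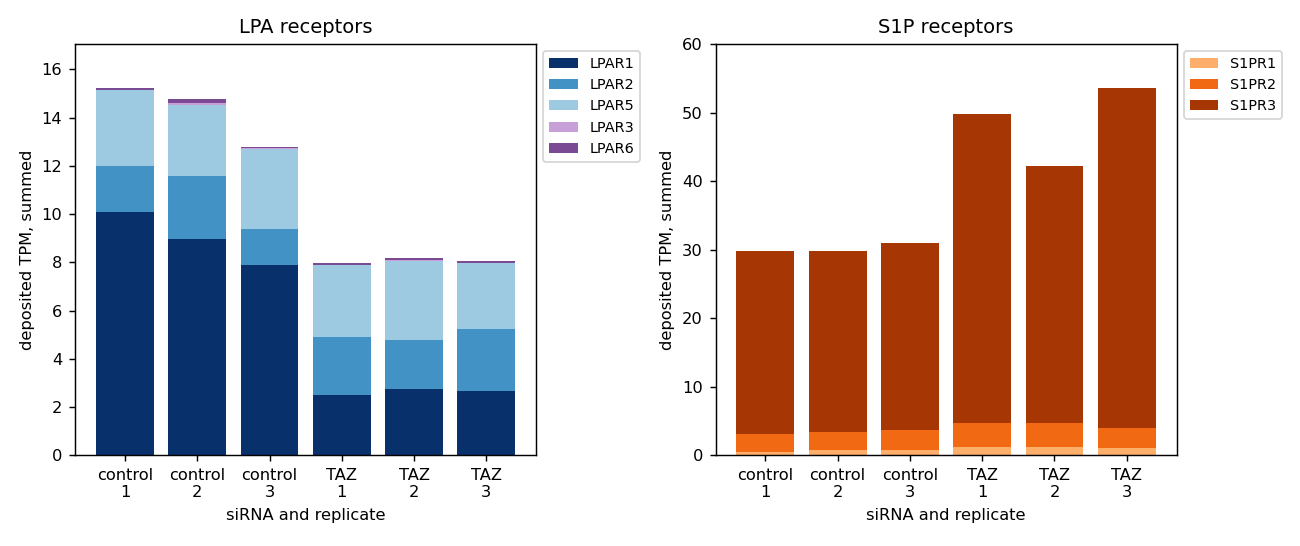
Deposited TPM of the LPA receptors (left) and S1P receptors (right) in each of the 6 libraries, stacked by gene, with both axes starting at 0. The LPA receptor sum is 12.8 to 15.2 TPM with control-siRNA and 7.97 to 8.20 TPM with TAZ-siRNA, with the LPAR1 segment the one that differs most, and the S1P receptor sum is 29.9 to 31.1 TPM and 42.2 to 53.6 TPM, most of it S1PR3.

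S1PR3 was the most abundant of the 8 receptors in every library, and it rose. S1PR3, an S1P receptor that couples to Gi, Gq and G12/13, lies on the plus strand of chromosome 9 (88991468 to 89005155) and is listed with a single transcript. It had 26.8, 26.5 and 27.4 TPM with control-siRNA and 45.1, 37.4 and 49.7 TPM with TAZ-siRNA. All TAZ-siRNA libraries were above all control-siRNA libraries, and they were more spread out. In CPM the means were 53.7 ± 2.20 (SD, n = 3) and 84.9 ± 15.1 (SD, n = 3), a rise of 1.58-fold (log2 fold change 0.66, standard error 0.11, 95% interval 0.41 to 0.92, adjusted p = 0.0042 by edgeR). The log2 fold change of S1PR3 was 0.53 (adjusted p = 8.0e-05) without TAZ-siRNA replicate 3, its highest library. The gene C9orf47, which begins upstream of S1PR3 and overlaps it, had 41 to 95 counts per library against 2729 to 6125 for S1PR3.

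S1PR1, the Gi-coupled receptor known for lymphocyte egress and vascular barrier function, rose from a low level. On chromosome 1 (101236749 to 101241520), its counts were 45, 59 and 47 with control-siRNA and 106, 77 and 79 with TAZ-siRNA. Scaled to library size the lowest TAZ-siRNA library (1.41 CPM) was above the highest control-siRNA library (0.968 CPM). S1PR1 rose 1.72-fold (log2 fold change 0.78, standard error 0.20, 95% interval 0.33 to 1.22, adjusted p = 0.020 by edgeR). The adjusted p became 0.073 when control-siRNA replicate 1 was left out (log2 fold change 0.62), 0.060 without TAZ-siRNA replicate 1 (0.79) and 0.054 without TAZ-siRNA replicate 2 (0.74). S1PR2, a receptor that couples to G12/13 and is known for restraining migration in many cell types, lies on chromosome 19 (10221433 to 10231331). It had 4.23, 4.42 and 5.04 CPM with control-siRNA and 5.49, 5.64 and 5.01 CPM with TAZ-siRNA. The highest control-siRNA library lay just above the lowest TAZ-siRNA library. For S1PR2 the log2 fold change of 0.24 did not pass the test (95% interval -0.0042 to 0.48, adjusted p = 0.15 by edgeR).

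The sum over the 3 S1P receptors S1PR1, S1PR2 and S1PR3 was 30.3 ± 0.697 TPM (SD, n = 3) with control-siRNA and 48.5 ± 5.82 TPM (SD, n = 3) with TAZ-siRNA, and S1PR3 held 88.2 to 92.6% of it in every library. With S1PR5, a receptor outside the 10 genes, added to the sum, S1PR3 held 78.4 to 80.9% in control-siRNA libraries, against 80.6 to 87.7% after TAZ-siRNA. Over all 8 receptors, the LPA receptors' part was 33.8, 33.1 and 29.1% with control-siRNA and 13.8, 16.3 and 13.1% with TAZ-siRNA, and the groups did not overlap (29.6 ± 2.51% and 13.5 ± 1.32%, SD, n = 3, with S1PR5 included). S1PR3 mRNA was 2.66, 2.95 and 3.48 times that of LPAR1 with control-siRNA and 18.1, 13.7 and 18.6 times with TAZ-siRNA, on the TPM scale. TPM values are relative to the total of each library, so these sums do not give the number of molecules per cell. The scales also differ between the groups. The marker VIM, for one, had means of 3574 CPM with control-siRNA and 3400 CPM with TAZ-siRNA, but 3733 and 3836 TPM. Small differences in TPM between the groups can therefore come from the scale.

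By TPM, the order of the receptors in all 3 control-siRNA libraries was S1PR3, LPAR1, LPAR5, S1PR2, LPAR2, S1PR1, LPAR6 and LPAR3. In this order the ranges of S1PR2 and LPAR2 overlapped, as did those of LPAR6 and LPAR3, and the other neighbours were further apart than the sum of their SDs. In all 3 TAZ-siRNA libraries the order was S1PR3, S1PR2, LPAR5, LPAR1, LPAR2, S1PR1, LPAR6 and LPAR3. The means of S1PR2 (3.33 ± 0.342 TPM, SD, n = 3), LPAR5 (2.99 ± 0.253), LPAR1 (2.63 ± 0.123) and LPAR2 (2.33 ± 0.250) each differed from the next by less than the sum of their SDs. Between receptors further apart in this order the ranges did not overlap, with S1PR2 (2.94 to 3.56 TPM) above LPAR1 (2.49 to 2.73 TPM) and LPAR2 (2.06 to 2.55 TPM), and LPAR5 (2.74 to 3.25 TPM) above LPAR2. Of the 3 receptors of both families that were not among the 10 genes, LPAR4 had 0 to 2 counts and S1PR4 1 to 15 counts per library. S1PR5 stood at 3.66 TPM with control-siRNA and 3.47 TPM with TAZ-siRNA (log2 fold change -0.16, adjusted p = 0.50 by edgeR), a level near those of S1PR2 and LPAR5.

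**Figure D2:**
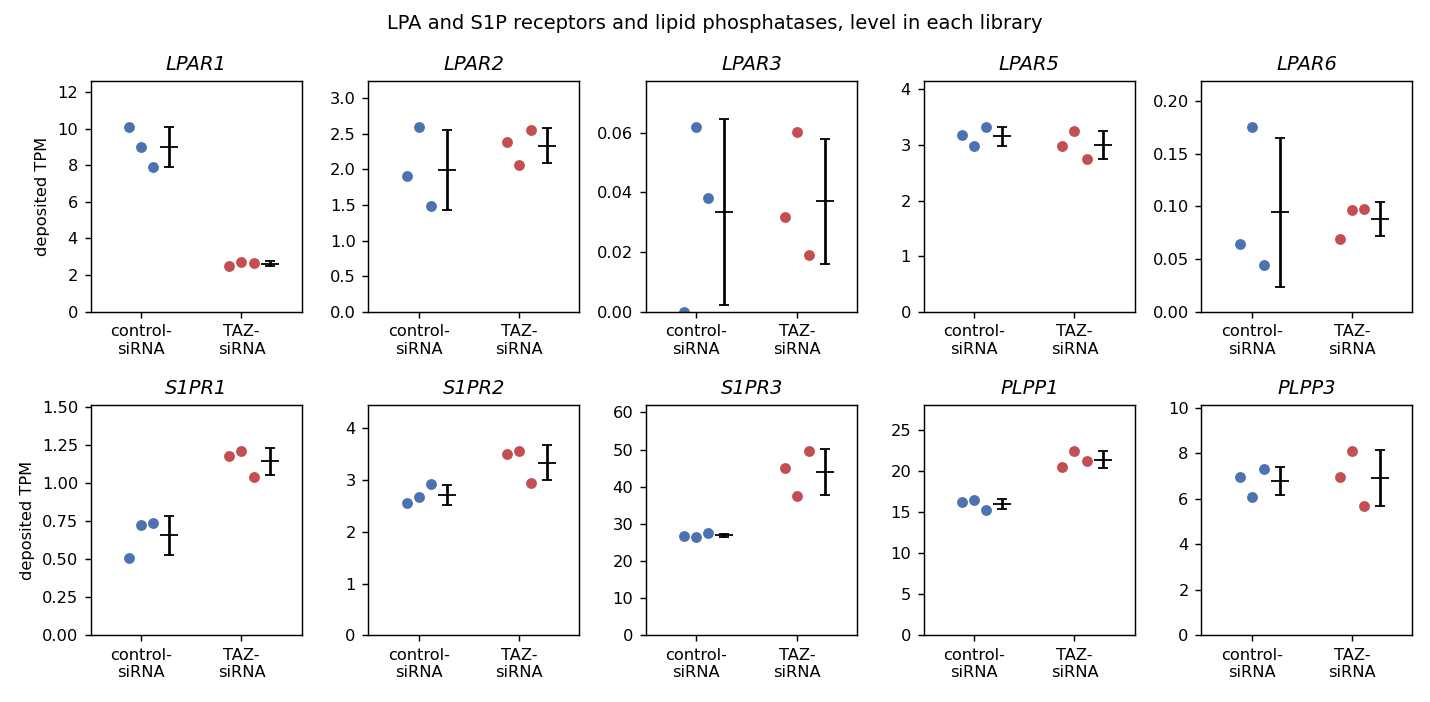
Deposited TPM of the 10 genes in each library, 1 panel a gene with its own axis from 0; points are libraries and bars the mean and SD of 3. LPAR1 lies lower in all TAZ-siRNA libraries, S1PR1, S1PR2, S1PR3 and PLPP1 lie higher in TPM (S1PR2 overlaps in CPM), and the groups overlap for LPAR2, LPAR3, LPAR5, LPAR6 and PLPP3.

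PLPP1 and PLPP3 are membrane enzymes with their active site outside the cell, where they dephosphorylate LPA and S1P. PLPP1 on chromosome 5 (55424842 to 55535078) had 11.7, 11.6 and 11.2 CPM with control-siRNA and 13.6, 15.0 and 15.7 CPM with TAZ-siRNA. All TAZ-siRNA libraries were above the control-siRNA libraries, which lay close together. PLPP1 rose 1.28-fold (log2 fold change 0.36, standard error 0.077, 95% interval 0.19 to 0.53, adjusted p = 0.0086 by edgeR). The span of PLPP1 overlaps that of MTREX, which had 2971 to 4845 counts per library against 544 to 990 for PLPP1 (MTREX log2 fold change -0.07, adjusted p = 0.38 by edgeR), and reads of the overlap could be divided between them. PLPP3 on chromosome 1 (56494761 to 56579563) had 10.4, 9.06 and 11.3 CPM with control-siRNA and 9.82, 11.5 and 8.68 CPM with TAZ-siRNA. The TAZ-siRNA libraries held both the highest and the lowest value. PLPP3 had a log2 fold change of -0.03 (95% interval -0.29 to 0.22, adjusted p = 0.86 by edgeR), a value whose sign turned with 1 library left out (0.059 without TAZ-siRNA replicate 3). Per length, PLPP1 was the more abundant of the pair, at 2.09 to 2.71 times PLPP3 with control-siRNA and 2.77 to 3.74 times with TAZ-siRNA in TPM.

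In all, 8 of the 10 genes passed the filter on low counts, and 4 of these had an adjusted p under 0.05: S1PR1, S1PR3 and PLPP1 were higher and LPAR1 lower with TAZ-siRNA. Of all 16966 genes tested, 22.1% had such a p, with 11.9% higher and 10.2% lower. LPAR1 entered the list with its fall known, so the count of 4 holds it by choice. The same 4 genes were those whose libraries did not overlap in CPM between the groups, a state found in 39.6% of the genes tested (20.0% with the TAZ-siRNA libraries all higher and 19.6% all lower). The median log2 fold change of the 8 genes was 0.19 and that of all genes tested -0.0054. Of the genes that rose, S1PR3 ranked 254, S1PR1 142 and PLPP1 964 by fold change among the 1917 genes that were called higher and averaged 1 CPM or more.

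**Figure D3:**
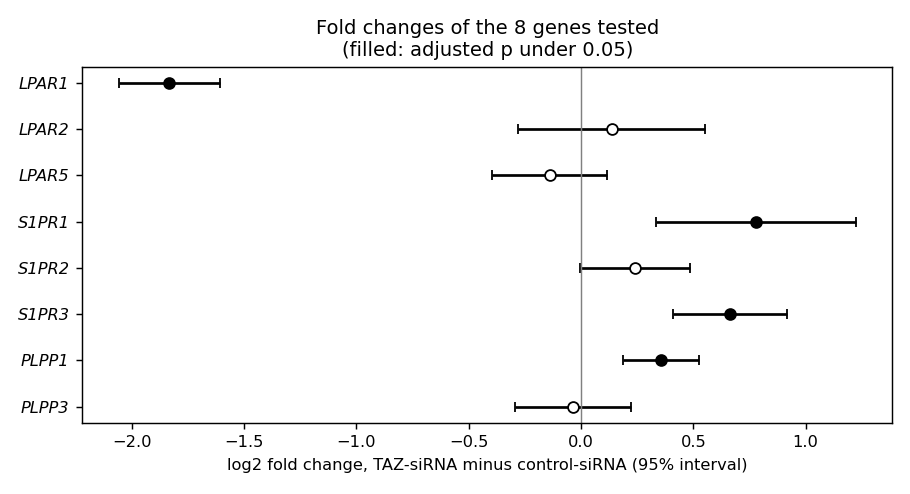
Log2 fold change (TAZ-siRNA minus control-siRNA) of the 8 genes that passed the filter, with 95% intervals from edgeR's quasi-likelihood fit to 3 libraries a group. Filled points have an adjusted p under 0.05: LPAR1 at -1.83 to the left of 0, and S1PR1 at 0.78, S1PR3 at 0.66 and PLPP1 at 0.36 to the right.

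The deposited transcript values divide the reads of LPAR1 among 28 annotated transcripts, of which 21 had a count in some library and 1 had a count in all 6. They begin at 8 annotated starts. Most counts went to transcripts with a start at position 111038470 or at 111038087. The start at 111038470, whose upstream sequence is shown above, was picked for its number of transcripts with a count (9, against 6 at 111038087). The start at 111038087, not shown, had the higher mean TPM in both groups. Transcripts from 111038470 had 632, 258 and 181 counts with control-siRNA and 75, 141 and 47 with TAZ-siRNA. Those from 111038087 had 312, 642 and 385 counts with control-siRNA and 147, 78 and 169 with TAZ-siRNA. For both starts every TAZ-siRNA library was lower in TPM, at 0.931 ± 0.684 (SD, n = 3) against 3.24 ± 1.88 for the former and 1.32 ± 0.377 against 4.41 ± 1.61 for the latter. The division between the starts varied from library to library within each group, so the fall is given here for both starts and no shift between them is read from it.

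**Figure D4:**
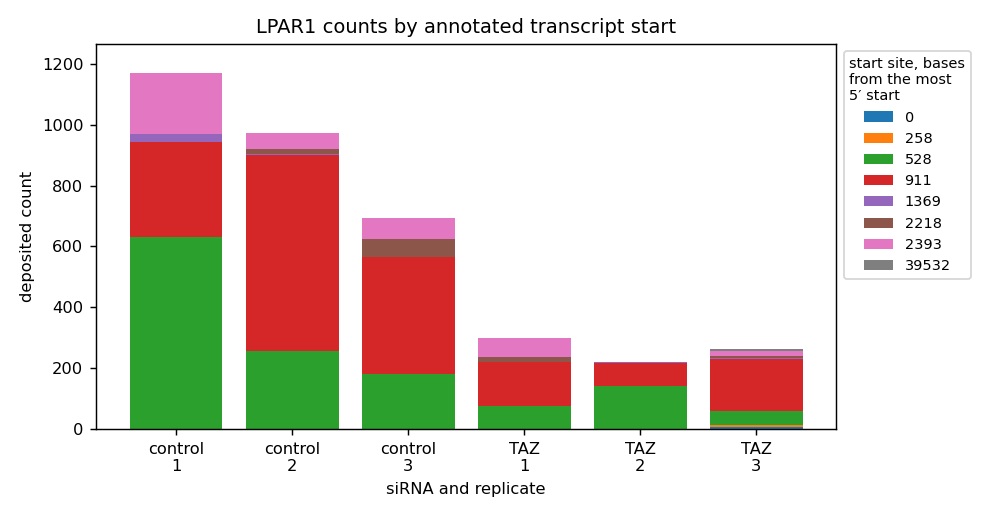
Deposited LPAR1 counts in each library, stacked by the annotated start of the transcripts they were assigned to; the legend gives the distance of each start from the most 5′ start in bases. The starts at 528 and 911 bases hold most counts in every library and both are lower in the TAZ-siRNA libraries, while their proportion varies between replicates.

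The other genes had fewer transcripts, and their values carry the same uncertainty. PLPP1 transcripts from the start at position 55534964 held most counts (543, 660 and 461 with control-siRNA, and 826, 554 and 553 with TAZ-siRNA) and overlapped between the groups in TPM. A PLPP1 transcript with a start at 55535075 had 48, 51 and 66 counts with control-siRNA and 143, 150 and 139 with TAZ-siRNA, with no overlap. LPAR2 transcripts from 19628220 had 1.35 ± 0.136 TPM (SD, n = 3) with control-siRNA and 2.11 ± 0.257 TPM with TAZ-siRNA without overlap. The LPAR2 transcript from 19628395 had 0.644 ± 0.494 and 0.225 ± 0.191 TPM and overlapped. A transcript from 19628220 had 0, 0 and 0 counts with control-siRNA and 42, 0 and 11 with TAZ-siRNA, and the gene as a whole overlapped. No shift between the LPAR2 starts is read from these values, and the share of all transcripts without overlap was not counted. The LPAR5 transcript whose start region is shown above had 147, 60 and 136 counts with control-siRNA and 171, 0 and 123 with TAZ-siRNA, and a 0 beside 171 shows how unevenly the reads were divided. S1PR2, S1PR3 and PLPP3 have 1 listed transcript each, so their transcript and gene values are the same.

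Of the 13592 genes averaging 1 CPM or more that were set beside LPAR1, the 5 with the most similar values over the 6 libraries were DKK1, RIMS2, STK31, KISS1 and CLDN1, at Euclidean distances of 0.155, 0.167, 0.305, 0.529 and 0.563 between centred log2 CPM values. DKK1, a secreted inhibitor of Wnt signalling, stood at 127, 111 and 112 CPM with control-siRNA and at 32.7, 32.6 and 36.7 CPM with TAZ-siRNA. Its log2 fold change was -1.78, beside -1.83 for LPAR1. CLDN1, a tight junction protein, had -2.00. Likeness was measured over both groups, so genes that fell by a like amount count as alike.

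Beyond the 10 genes, 56 genes were listed, made up of the 3 other LPA and S1P receptors, genes of LPA and S1P metabolism, genes of signalling and desensitization at the receptors, and 4 protease-activated receptors. Of these, 51 passed the filter and 15 were called by the same fit, 9 higher and 6 lower with TAZ-siRNA (29.4%, against 22.1% of all genes tested). Both counts depended on single libraries: without TAZ-siRNA replicate 3, 24 of the listed genes and 5928 of all genes were called, and without control-siRNA replicate 2, 10 and 1937. The median log2 fold change of the 51 was 0.026. None of the 15 changed by as much as LPAR1, S1PR1 or S1PR3. The listed genes were chosen with earlier results of these data known. Their share of calls, and those of the parts of the list below, are therefore a description and no separate support.

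Autotaxin, the secreted enzyme that makes LPA and is encoded by ENPP2, was expressed at 53.7 ± 2.93 CPM (SD, n = 3) with control-siRNA and 58.5 ± 5.91 CPM with TAZ-siRNA, and did not pass the test (log2 fold change 0.12, adjusted p = 0.26 by edgeR). Of 7 genes of LPA production tested, GPAT4, an acyltransferase that makes LPA inside the cell, rose (log2 fold change 0.30, adjusted p = 0.0015) and AGK, the mitochondrial acylglycerol kinase, fell (-0.29, adjusted p = 0.0065). Among 9 genes that remove LPA beside PLPP1 and PLPP3, AGPAT4 (0.39) and the phosphatase ACP6 (0.20, adjusted p = 0.045 by edgeR) rose and AGPAT2 fell (-0.28). The AGPAT enzymes turn LPA into phosphatidic acid. The calls were thus 2 of 7 genes of LPA production (28.6%) and 3 of 9 of LPA removal (33.3%), against 22.1% of all genes tested. The other phosphatases of the PLPP family that were listed, PLPP2, PLPP4 and PLPP5, were not called, with log2 fold changes of 0.11, -0.14 and -0.16.

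SPHK1, the sphingosine kinase that makes S1P near the plasma membrane, rose from 20.8 ± 1.29 to 26.1 ± 3.75 CPM (SD, n = 3). The log2 fold change was 0.33 (adjusted p = 0.033 by edgeR). Its values were 21.0, 19.4 and 21.9 CPM with control-siRNA and 24.4, 23.5 and 30.4 CPM with TAZ-siRNA, replicate 3 being well above the others. Of the 9 tested genes of S1P production and export, ASAH2, a ceramidase that supplies sphingosine, fell (-0.43, adjusted p = 0.011), and SPNS2, an S1P exporter, was at 0.944 ± 0.250 CPM and 0.899 ± 0.212 CPM. SPHK1 and ASAH2 were the 2 called of these 9 (22.2%), against 22.1% of all genes tested. The 3 genes that remove S1P, SGPL1, SGPP1 and SGPP2, had 0 calls by edgeR and 0 with an unadjusted p under 0.05. With 3 genes, 0 calls cannot be set apart from the share of all genes. Their log2 fold changes were 0.026, 0.14 and -0.019. SGPL1, the S1P lyase, was the highest of them per length, at 38.5 ± 0.350 TPM (SD, n = 3) with control-siRNA.

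Of the 7 G protein alpha subunits to which these receptors couple, GNAQ rose (log2 fold change 0.33, adjusted p = 0.0054 by edgeR), and GNA12 (0.11), GNA13 (0.062), GNA11 (0.064) and the Gi subunits were not called. Of the 5 RhoGEFs, ARHGEF1 fell by a small amount (-0.16, adjusted p = 0.046), while ARHGEF11, ARHGEF12, ARHGEF2 and AKAP13 were not called. In receptor desensitization, 4 of 6 genes were called, 2 in each direction (22.1% of all genes tested were called). Among the receptor kinases GRK5 rose (0.51, adjusted p = 0.0043) and GRK6 fell (-0.28, adjusted p = 0.0044), while GRK2 (0.17) and GRK3 (0.24) did not pass the test, and among the beta-arrestins ARRB1 rose (0.43, adjusted p = 0.0045) and ARRB2 fell (-0.41, adjusted p = 0.0062). Of the 4 protease-activated receptors, which share these G proteins, 2 were called. F2RL1 rose from 283 ± 4.47 to 392 ± 16.7 CPM (SD, n = 3; log2 fold change 0.47, adjusted p = 3.7e-04) and F2R, the thrombin receptor, rose with 0.22 (adjusted p = 0.036), while F2RL3 (-0.37, adjusted p = 0.094) and F2RL2 (-0.022, adjusted p = 0.97) did not pass the test.

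**Figure D5:**
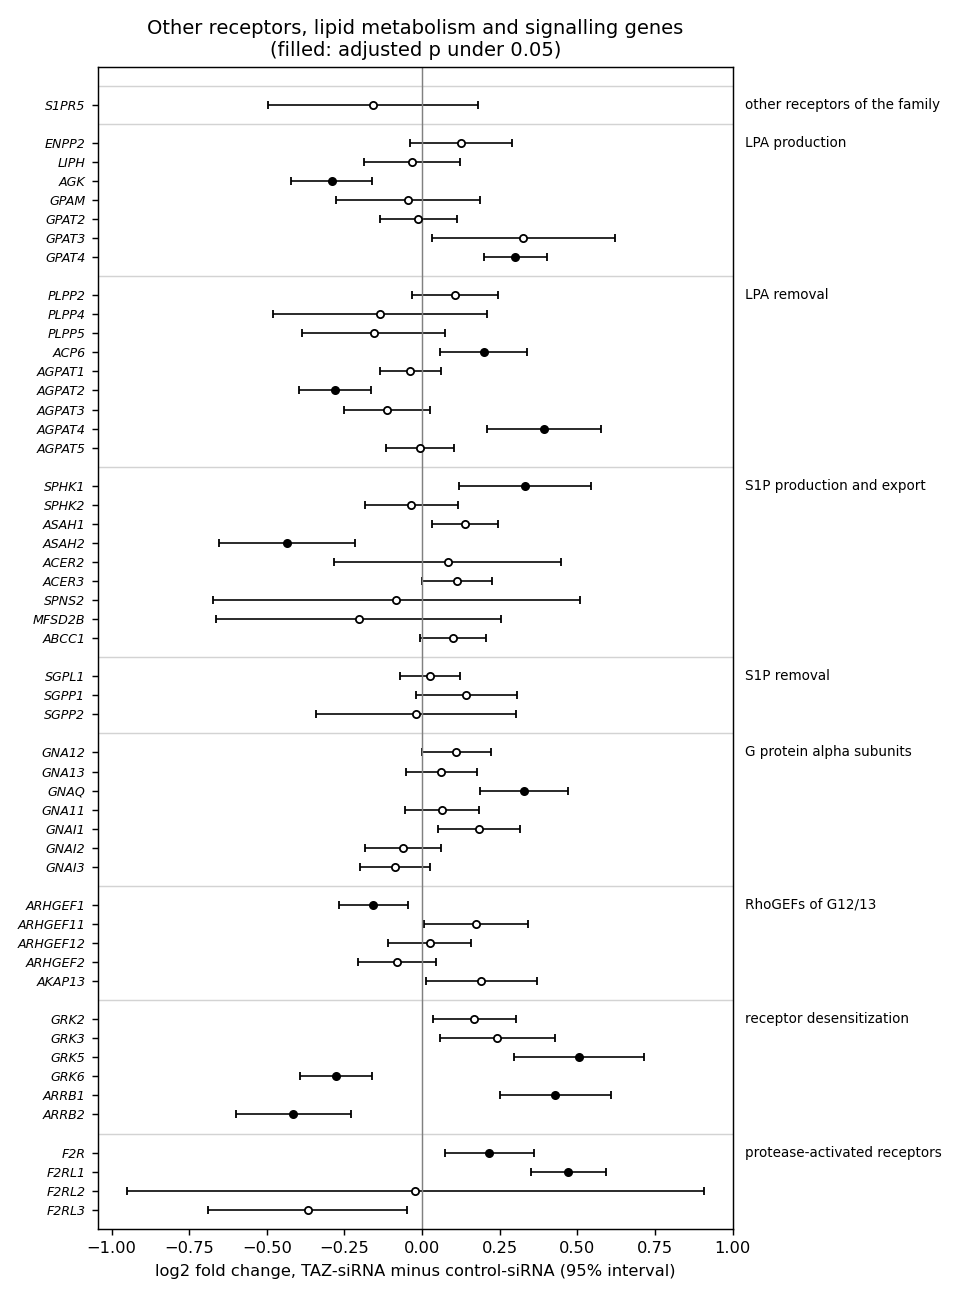
Log2 fold change (TAZ-siRNA minus control-siRNA) with 95% intervals of the 51 listed genes (other receptors, lipid metabolism and signalling) that passed the filter, grouped by role; filled points have an adjusted p under 0.05. The 15 filled points lie between -0.43 (ASAH2) and 0.51 (GRK5), on both sides of 0.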

How the data were processed

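RNA from 3 control-siRNA and 3 TAZ-siRNA preparations of MDA-MB-231 cells was sequenced from stranded mRNA libraries. Read trimming, mapping to GRCh38 by HISAT2 and quantification by StringTie were done by the authors. The deposited estimated counts are whole numbers that the authors derived per gene and transcript. The authors also deposited FPKM, which is scaled for length and library size, and TPM, which is scaled for length and to a common total.

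Libraries were grouped and numbered 1 to 3 by their sample descriptions, which the column names repeat. Deposited counts were compared with edgeR 4.0.16 (R 4.3.3), using TMM normalization, a filterByExpr minimum of 10 counts and a robust quasi-likelihood fit, and p-values were adjusted by Benjamini-Hochberg over the 16966 genes tested, with a threshold of 0.05. The biological coefficient of variation was 8.04%. Levels of different genes were ranked only in TPM. Same-numbered libraries did not deviate together (r = -0.0173, 0.00865 and 0.0698 over genes), so no block was used. The genes named are the 10 members, the listed genes of their metabolism and signalling, WWTR1, the markers, and the 5 genes most like LPAR1. The members and lists were chosen with earlier results of these data known. Alternatives used DESeq2 1.42.0, upper-quartile factors, other filters, a stricter threshold, the replicate block, limma 3.58.1 with pseudocounts of 1 and 0.1 on log2 FPKM, a spline correction (5 degrees of freedom) for GC content and length, and each library left out. GC content and length were available for 89.7% of the genes tested and for all 10 members. The edgeR fits (plain, blocked and corrected for GC content) and DESeq2 were tested on simulated counts. Motifs were searched with Python 3.11.15.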

Additional observations from a re-analysis of the deposited data

How the results depend on the processing

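The 4 calls among the 10 genes were 3 to 4 under the 15 alternatives, and with each library left out they ran from 3 to 4. LPAR1, S1PR3 and PLPP1 kept their direction and call under every alternative that was run. LPAR1 ranged from -1.90 to -1.19 on the log2 scale, the last on log2(FPKM + 1), a scale that shrinks low genes, on which S1PR1 had 0.196. After GC content and length were corrected for, S1PR3 had 0.61 (adjusted p = 0.032 by edgeR). The PLPP3 log2 fold change, -0.03, ran from -0.140 to 0.0593 with a library left out, turning to 0.040 when control-siRNA replicate 3 was omitted and to 0.059 when TAZ-siRNA replicate 3 was, and the cause was not tested. The counts of listed pathway genes called, 15, ran from 10 to 24 with a library left out, 24 in the absence of TAZ-siRNA replicate 3 and 10 in that of control-siRNA replicate 2 or TAZ-siRNA replicate 1. It was 10 at an adjusted p under 0.01 and 10 with limma on either scale. Of all genes tested, 3749 were called. This was 1720 at an adjusted p under 0.01, and with a library left out it lay between 1937, when control-siRNA replicate 2 was omitted, and 5928, when TAZ-siRNA replicate 3 was. Omitting control-siRNA replicate 1 or 3 or TAZ-siRNA replicate 1 gave 2262, 2115 and 2046. The share of LPAR1 among LPA receptors was 61.2 to 64.0% and 32.1 to 33.2% in the groups with a library left out, and the other LPA receptors' ratio was 0.981 to 1.09 under all alternatives.

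With the replicate number as a block (replicate block), 4 of the members, 19 of the listed genes and 5122 of all genes were called, and no call of a member changed. Same-numbered libraries did not deviate together over all genes, so this fit is given only here. Those correlations cannot exclude a replicate effect shared by some genes. S1PR3 had an adjusted p of 4.0e-04 by edgeR with the block, against 0.0042 without it. With no filter on low counts, all 10 genes were tested and the same number, 4, was called, with LPAR3 and LPAR6 not among them.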
